A study of Homo sapiens and Mus musculus with 69 samples.

Results

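Synaptic and neuronal genes of the kind that REST silences outside neurons were followed through small cell lung cancer (SCLC) cells in which Notch signaling or REST itself was switched on, or in which *REST* was knocked out. The 37 genes were taken by symbol from a list of presynaptic, cytoskeletal, RNA-binding and surface proteins of neurons. All 37 were found among the 20516 genes of the human table and, as mouse symbols, among the 18501 genes of the KP1 table.

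REST is a zinc finger repressor that binds a DNA motif called RE1 and recruits histone-modifying complexes, among them one that holds the demethylase LSD1. It keeps neuronal genes silent in cells that are not neurons. SCLC is a neuroendocrine tumor that expresses many of these genes, and in its neuroendocrine cells Notch signaling is low. *REST* is a known target of Notch signaling in this tumor, where Notch activity is linked to a switch away from the neuroendocrine state.

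Bulk RNA-Seq was made of 69 libraries in 23 groups of 3 libraries. Human H82 cells were parental, or carried a doxycycline-inducible vector for the NOTCH1 intracellular domain (N1ICD) without or with doxycycline (dox), in cells with intact *REST*, with *REST* KO or labelled *STING1* KO. H524 cells were parental or carried the inducible *N1ICD* vector or an inducible *REST* vector, each without or with dox, and H69 cells were parental or carried the *N1ICD* vector without or with dox. COR-L88 cells received DMSO, the LSD1 inhibitor TAS1440 or TAS1440 plus the gamma-secretase inhibitor (GSI) BMS-708163, which blocks Notch activation, and COR-L88 cells labelled *STING1* KO received DMSO or TAS1440. The mouse SCLC line KP1, which has lost *Rb1* and *Trp53*, received DMSO, TAS1440 or TAS1440 plus the GSI DBZ. By the study's methods, the induced cells analyzed were those that adhered to the plate after long-term culture with dox, whereas all COR-L88 cells were collected. Each KO was made with a single guide, and the paper shows single-cell KO clones of H82 and COR-L88. The labels do not say whether the KO libraries stem from 1 clone, so differences of the KO and of a clone cannot be told apart.

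Values are log2(RPKM + 1), and differences on this scale understate the change of genes near 0. Groups of a line were compared with limma over all genes that reached a value of 1 in 3 or more libraries, and a gene was said to rise or fall at a Benjamini-Hochberg adjusted *P* under 0.05 and an absolute log2 difference of at least 1. Of the 37 genes, 33 were tested in H82, 34 in H524, 37 in H69, 30 in COR-L88 and 22 in KP1. The others were below this filter (no library above 1.31 in H82, 1.08 in H524, 0.54 in COR-L88 or 1.05 in KP1). Medians over the 37 genes include them. The filter counted libraries of all groups of a line, so a gene could pass it through the groups where it was high. The labels do not say whether the libraries of a group are separate cultures, so *P* values measure the spread between libraries, and in bulk RNA fewer cells of a kind and less RNA per cell cannot be told apart. Counts at an unadjusted *P* under 0.05 are given without the share over all genes and are not calls.

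RE1 motifs are shown first because REST is known to bind its target genes through them. The motif searched was TTCAGCACC, 2 free bases and GGACAGCGC, on both strands within 5000 bases of the canonical transcript's start in the GRCh37 genome, allowing at most 3 mismatches over the 18 letters. A match was found for 15 of the 37 genes (40.5%), against 511 of 19856 protein-coding genes (2.57%). With at most 1 mismatch, 8 of the 37 genes (21.6%) and 0.378% of all genes had one. The 37 genes were chosen as REST-type targets, so a share above that of all genes is not an independent result. Such a match is a description of sequence, not evidence of binding, and these windows say nothing of more distant sites. The best matches of 7 genes that the results turn on, and the exact match of *GRIA2*, are given 5′ to 3′ on the strand of the motif, with letters that match in capitals.

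SYN1: TTCAGCACCgcGGACAGtGC
SNAP25: TTCAGCACCggGGACAGCGg
CPLX2: TTCAGCACCacGGAgAGCGC
SEZ6: aTCAGCACCacGGcCAGCGC
INA: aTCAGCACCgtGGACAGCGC
CELF3: TcCAGCACCggGGACAGCtC
TUBB3: gTCAGCACCaaGGACAGCGC
GRIA2: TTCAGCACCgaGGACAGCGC

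The site of *SYN1* lay on the minus strand at −223 bases from the start (chrX:47479470-47479489) and that of *CELF3* on the minus strand at −307 bases (chr1:151689577-151689596). The site of *SNAP25* was in an intron (plus strand, chr20:10200320-10200339), as were those of *CPLX2* (minus strand, chr5:175298892-175298911), *INA* (minus strand, chr10:105038766-105038785) and *TUBB3* (plus strand, chr16:89992912-89992931). The site of *SEZ6* (plus strand, chr17:27333041-27333060) overlapped a 5′ untranslated region, and that of *GRIA2* lay upstream (minus strand, chr4:158141541-158141560). The other genes with a match were *ELAVL3*, *NEFH*, *NEFM*, *STMN2*, *SV2B*, *SYT4* and *SYT5*. No match was found for *CPLX1* (chromosome 4, 778745 to 819917), *UNC13A* (chromosome 19, 17712145 to 17799163), *STMN3* (chromosome 20, 62271065 to 62284777), *SYT1* (chromosome 12, 79258554 to 79845788) or *RAB3A* (chromosome 19, 18307594 to 18314852).

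Before treatment the human lines expressed most of the genes. The median level of the 37 genes ran from 3.33 to 4.26 in the 3 parental H82 libraries, from 4.76 to 5.30 in parental H524, from 4.50 to 4.57 in parental H69 and from 2.90 to 2.95 in COR-L88 with DMSO. In KP1 with DMSO it was 1.14 to 1.24. *SYT1*, the calcium sensor of synaptic vesicles, was among the high genes in each human line, whereas the neurofilament genes *NEFL*, *NEFM* and *NEFH* were listed at 0 in all COR-L88 libraries with DMSO. The neuroendocrine marker *NEUROD1* was at a mean of 13.3 in parental H82.

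**Figure D1:**
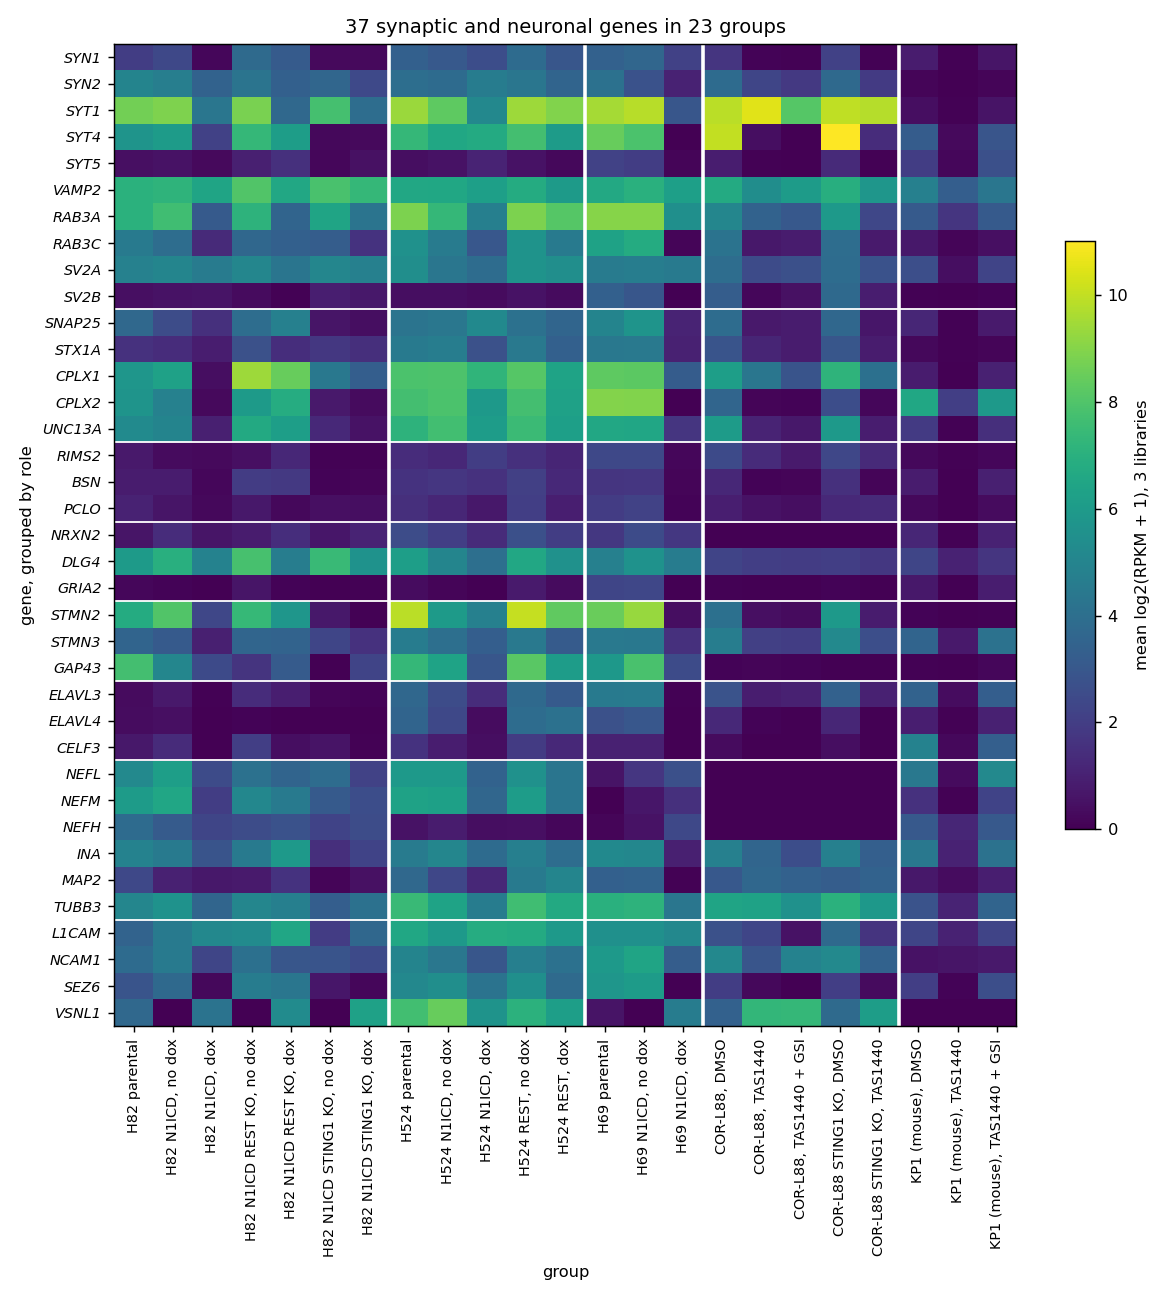
Mean log2(RPKM + 1) over 3 libraries (color) of the 37 genes (rows, grouped by role, mouse symbols in capitals) in the 23 groups (columns, white lines between cell lines). The columns with induced *N1ICD* in intact H82, H524 and H69 cells and with TAS1440 are darker than their controls for most genes, and the column of H82 *REST* KO cells with dox is lighter than that of intact cells with dox.

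In H82 cells, most of these genes were lower when *N1ICD* was induced. The median of the 37 genes was 4.00 to 4.10 in the 3 libraries without dox and 1.15 to 1.42 with it. *REST* was 4.42, 4.80 and 4.70 without dox and 6.48, 6.13 and 6.33 with it, a log2 difference of 1.67 (SE 0.22, limma adjusted *P* = 5.45e-06). Of the 37 genes, 21 fell and 1 rose, and the median difference was −1.33. Over all genes tested, 12.4% fell and 14.7% rose, with a median difference of −0.0026.

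*CPLX1*, a gene of vesicle fusion, fell furthest. The gene, which encodes complexin, a clamp on the fusion machinery, was 6.06, 6.36 and 6.55 without dox and 0.70, 0.49 and 0.00 with it. Its log2 difference of −5.93 (SE 0.23) was the largest of the 37 genes. *CPLX2*, its paralog, fell by 4.55 (SE 0.27), and *UNC13A*, which primes vesicles for release, fell from 4.46, 5.23 and 5.24 to 1.06, 0.84 and 0.98. Together, 4 of the 5 fusion genes fell, the exception being the syntaxin gene *STX1A* at −0.49.

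Genes of the vesicle itself divided. *SYT1* was 8.48, 9.13 and 9.09 without dox and 4.96, 3.55 and 4.50 with it, and *RAB3A*, a vesicle GTPase, fell by 4.52 (SE 0.39). *SYN1*, a synapsin that ties vesicles into a pool, went from 2.17, 2.63 and 2.34 to 0.21, 0.13 and 0.28. No library with dox reached the lowest library without it for these 3 genes. In all, 6 of the 10 vesicle genes fell, whereas *VAMP2*, the vesicle SNARE, differed by −0.72 and the vesicle glycoprotein gene *SV2A* by −0.42.

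All 3 growth-associated genes fell. *STMN2*, a stathmin that regulates microtubules in growing axons, was 5.77, 9.30 and 9.02 without dox and 1.73, 2.78 and 2.59 with it. The first of these uninduced libraries, library 4, stood apart from the other 2 in several genes. *STMN3* fell by 2.15 (SE 0.23), and *GAP43*, a growth cone protein, differed by −2.58 (SE 0.57). *CELF3*, a splicing regulator of neurons, fell (−1.33), as did the neuronal tubulin gene *TUBB3* (−2.04), the adhesion gene *NCAM1* (−2.21) and the target SNARE gene *SNAP25* (−1.03). *ELAVL4*, another neuronal RNA-binding protein, was below the filter in H82.

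The exception was *VSNL1*, a neuronal calcium sensor. It was listed at 0 in all 3 libraries of uninduced *N1ICD* cells, whereas it was 3.75, 4.34 and 4.51 with dox (limma adjusted *P* = 1.55e-07). Parental H82 cells also expressed it, at 2.20, 4.67 and 4.33. The induced level thus overlapped that of the parental cells, and the call rests on the level of the uninduced vector cells.

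**Figure D2:**
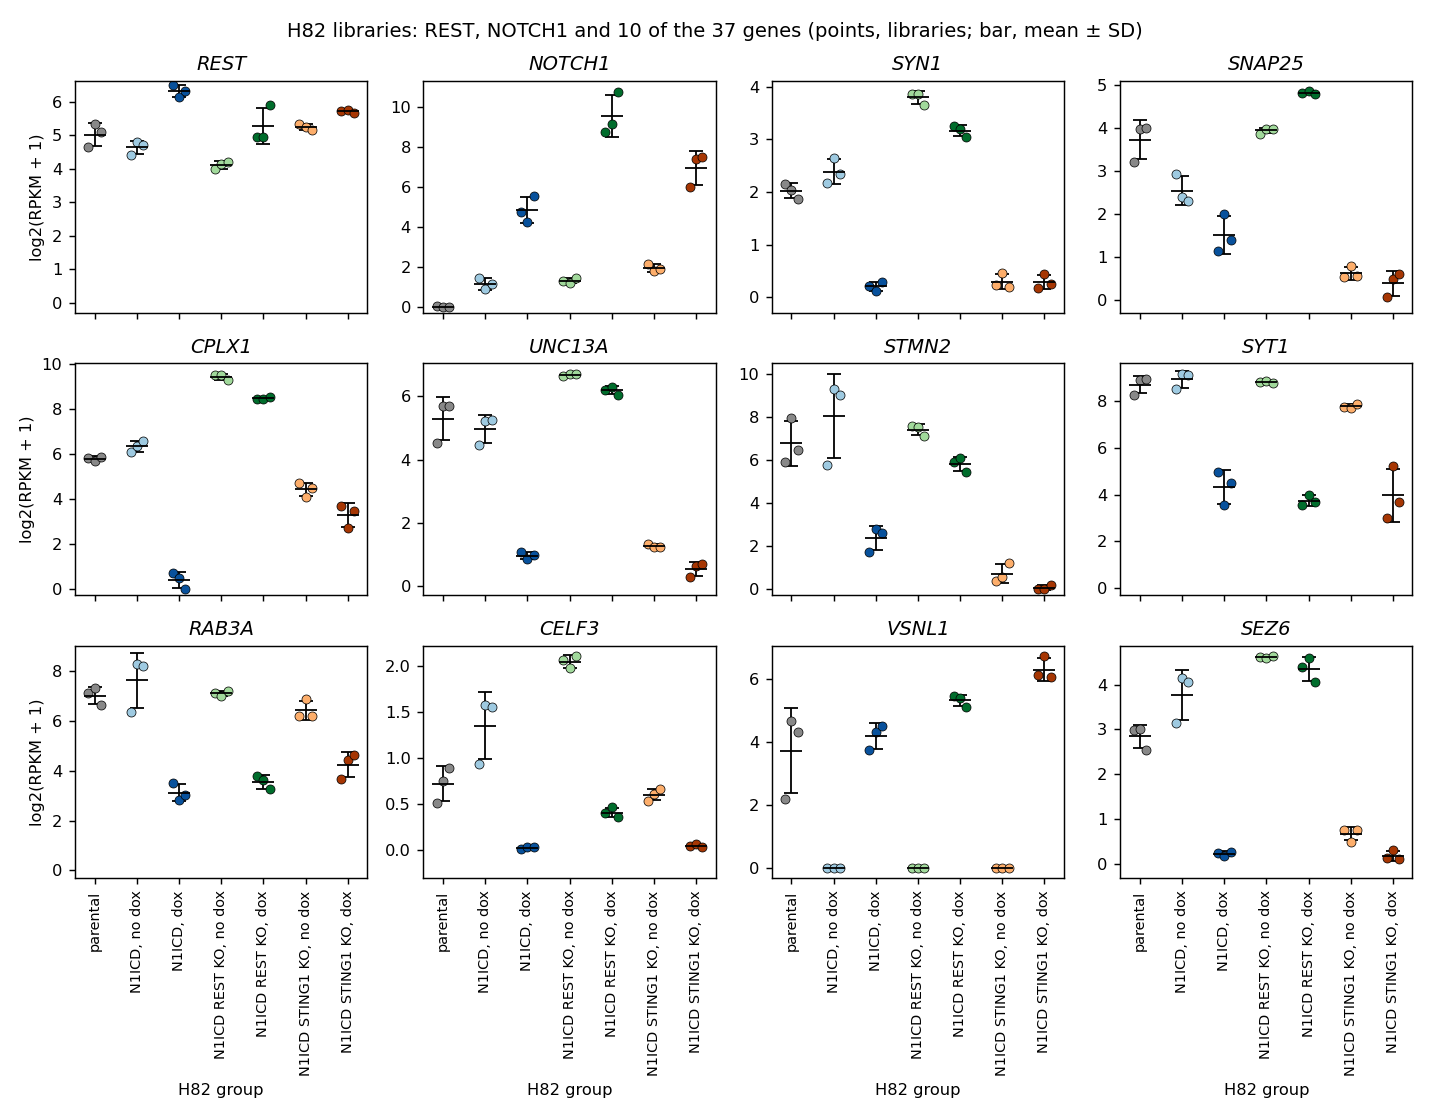
Log2(RPKM + 1) of *REST*, *NOTCH1* and 10 of the 37 genes in the 21 H82 libraries (points; bar, mean ± SD of 3 libraries; vertical scales differ between panels). *SYN1*, *SNAP25*, *CPLX1*, *UNC13A*, *STMN2* and *SEZ6* are higher in *REST* KO cells with dox than in intact cells with dox, *SYT1* and *RAB3A* overlap between these groups, and *CELF3* stays below 0.50 in both.

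The *REST* KO comparison asks which of these genes fall with *N1ICD* only when *REST* is intact. *REST* mRNA was present in the KO libraries, at 3.99, 4.15 and 4.20 without dox and 4.95, 4.95 and 5.89 with it. With dox it was lower than in intact cells by a log2 difference of −1.05 (SE 0.22, limma adjusted *P* = 0.00114). RNA-Seq does not measure REST protein. *NOTCH1* mRNA with dox was 8.75, 9.15 and 10.74 in the KO cells against 4.75, 4.26 and 5.56 in intact cells, so the 2 induced groups also differed in the amount of *NOTCH1* mRNA. The part of that difference in the results was not tested.

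With dox, 18 of the 37 genes were higher in *REST* KO than in intact cells and none was lower (0 of 33 tested lower by limma, with 24 of the 33 at an unadjusted *P* under 0.05 in either direction). Over all genes, 9.44% were higher and 8.21% lower. The median difference was 0.93 over the 37 genes and −0.059 over all genes tested. *CPLX1* was 8.41, 8.43 and 8.53 in the induced KO cells against values of at most 0.70 in induced intact cells, a log2 difference of 8.06 (SE 0.23, limma adjusted *P* = 5.33e-14). *CPLX2* differed by 6.54 (SE 0.27) and *UNC13A*, at 6.22, 6.30 and 6.06 in the KO cells, by 5.23 (SE 0.26). *SEZ6*, a surface protein of developing neurons, was 4.39, 4.59 and 4.05 against 0.25, 0.18 and 0.28, a difference of 4.11 (SE 0.22).

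*SYN1* was 3.26, 3.19 and 3.04 in induced KO cells, above its level in parental cells (2.15, 2.04 and 1.87). *SNAP25*, at 4.82, 4.85 and 4.79, was higher than in any other H82 group and differed by 3.31 (SE 0.24) from induced intact cells. *STMN2* differed by 3.44 (SE 0.66), *STMN3* by 2.55 (SE 0.23), *INA*, an intermediate filament gene of neurons, by 3.05 (SE 0.31) and *TUBB3* by 1.17 (SE 0.44, limma adjusted *P* = 0.0437). The *TUBB3* call was lost in 8 of 12 alternative settings.

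For other genes the 2 induced groups did not differ by the test. *SYT1* was 3.54, 4.00 and 3.66 (difference −0.61, SE 0.41, limma adjusted *P* = 0.266) and *RAB3A* 3.79, 3.64 and 3.26 (difference 0.44, SE 0.39, limma adjusted *P* = 0.4). The groups overlapped for both genes. *NCAM1* differed by 0.65 (SE 0.34), *CELF3* by 0.38 (SE 0.15), *GAP43* by 0.68 (SE 0.57) and *DLG4*, which encodes the postsynaptic scaffold PSD-95, by −0.21 (SE 0.32). *CELF3* was 0.36 to 0.47 in the KO cells and at most 0.03 in intact cells, a difference under the fold threshold. That these 6 genes did not pass does not show that they were equal.

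By role, 4 of 5 fusion genes, 4 of 6 cytoskeletal genes, 2 of 3 growth genes and 3 of 4 surface and signaling genes were higher with the KO. Among the 9 vesicle genes tested 4 were higher, and 1 of the 2 active zone genes tested (*BSN*, the scaffold bassoon). Of the RNA-binding and of the synaptic contact genes 2 each were tested and did not pass, *ELAVL3* (0.86, SE 0.16) and *NRXN2* (0.84, SE 0.15) because the differences were under the fold threshold. *ELAVL4* and *GRIA2* were too low to be tested. Of the 15 genes with a motif match 10 were higher, with a median difference of 2.50, and of the 22 genes without one 8 were higher, with a median of 0.76. With *REST* induced in H524, treated below, the medians were −0.82 with a match and −0.80 without one. A split was also seen between uninduced H82 cells labelled *STING1* KO and intact cells, with medians of −2.08 and −0.78. *CPLX1* and *UNC13A*, with the first and the third largest differences, were without a match in the window, while *CELF3* had one and did not pass.

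Within *REST* KO cells, dox still lowered 9 of the 37 genes and raised 4, against 13.7% lower and 16.2% higher over all genes, and the median difference was −0.47. *SYT1* was 8.78, 8.85 and 8.77 without dox and fell by 5.07 (SE 0.41). *RAB3A* fell by 3.55 (SE 0.39), *DLG4* by 3.13 (SE 0.32), *CELF3* by 1.64 (SE 0.15) and *NCAM1* by 1.11 (SE 0.34). *SYN1* differed by −0.63, *UNC13A* by −0.49, *CPLX1* by −0.95, *STMN3* by −0.08 and *TUBB3* by −0.31, none of which reached the threshold.

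The intact and the KO pairs share no library, and 7 genes fell in both: *SYT1*, *SYT4*, *RAB3A*, *STMN2*, *CELF3*, *DLG4* and *NCAM1*. Over all genes tested in H82, 1064 of 13903 (7.65%) fell in both. Those 1064 are 61.6% of the 1726 genes that fell in intact cells, whereas the 7 are of 21 members that fell there. The fall of *STMN2* in KO cells was −1.60 with an adjusted *P* of 0.0493 by limma, and was lost in 9 of 12 alternative settings. *GAP43* and *INA* fell in intact cells and rose in KO cells, *GAP43* from 0.31, 1.44 and 3.18 to 3.40, 3.10 and 3.02 with overlapping groups. That rise of *GAP43* was lost in 8 of 12 alternative settings. *VSNL1* rose in both pairs, from 0 in all uninduced libraries to 5.47, 5.40 and 5.12 in the KO cells. *L1CAM*, a neuronal adhesion gene, rose by 1.19 (SE 0.35) in KO cells.

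The difference between the 2 responses was tested directly. The response to dox was more positive in KO than in intact cells for 15 of the 37 genes and more negative for none (0 of 33 tested, with 23 of the 33 at an unadjusted *P* under 0.05 in either direction, limma). Over all genes tested the shares were 7.46% and 5.46%, and the median over the 37 genes was 1.09. The responses of *CPLX2* differed by 5.34 (SE 0.38), those of *CPLX1* by 4.97 (SE 0.33), those of *GAP43* by 4.11 (SE 0.80) and those of *STMN2* by 4.07 (SE 0.93). *UNC13A* (3.52), *SNAP25* (1.90), *SYN1* (1.54) and *STMN3* (2.07) also passed. *SYT1* (−0.50), *RAB3A* (0.97), *CELF3* (−0.31), *NCAM1* (1.09) and *TUBB3* (1.73, limma adjusted *P* = 0.0655) did not.

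Without dox, some of the genes already differed between *REST* KO and intact cells. Of the 37, 8 were higher and 3 lower in KO than in intact cells, against 3.39% and 2.85% of all genes, and the median difference was 0.063. *CPLX1* was 9.48, 9.49 and 9.27 in uninduced KO cells, 3.09 (SE 0.23) above intact cells. *UNC13A* was higher by 1.71 (SE 0.26), *SYN1* by 1.41 (SE 0.14) and *SNAP25* by 1.40 (SE 0.24). *GAP43* was lower by 3.43 (SE 0.57), *NEFL* by 2.10 (SE 0.21) and *NEFM*, another neurofilament gene, by 1.42 (SE 0.27).

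**Figure D3:**
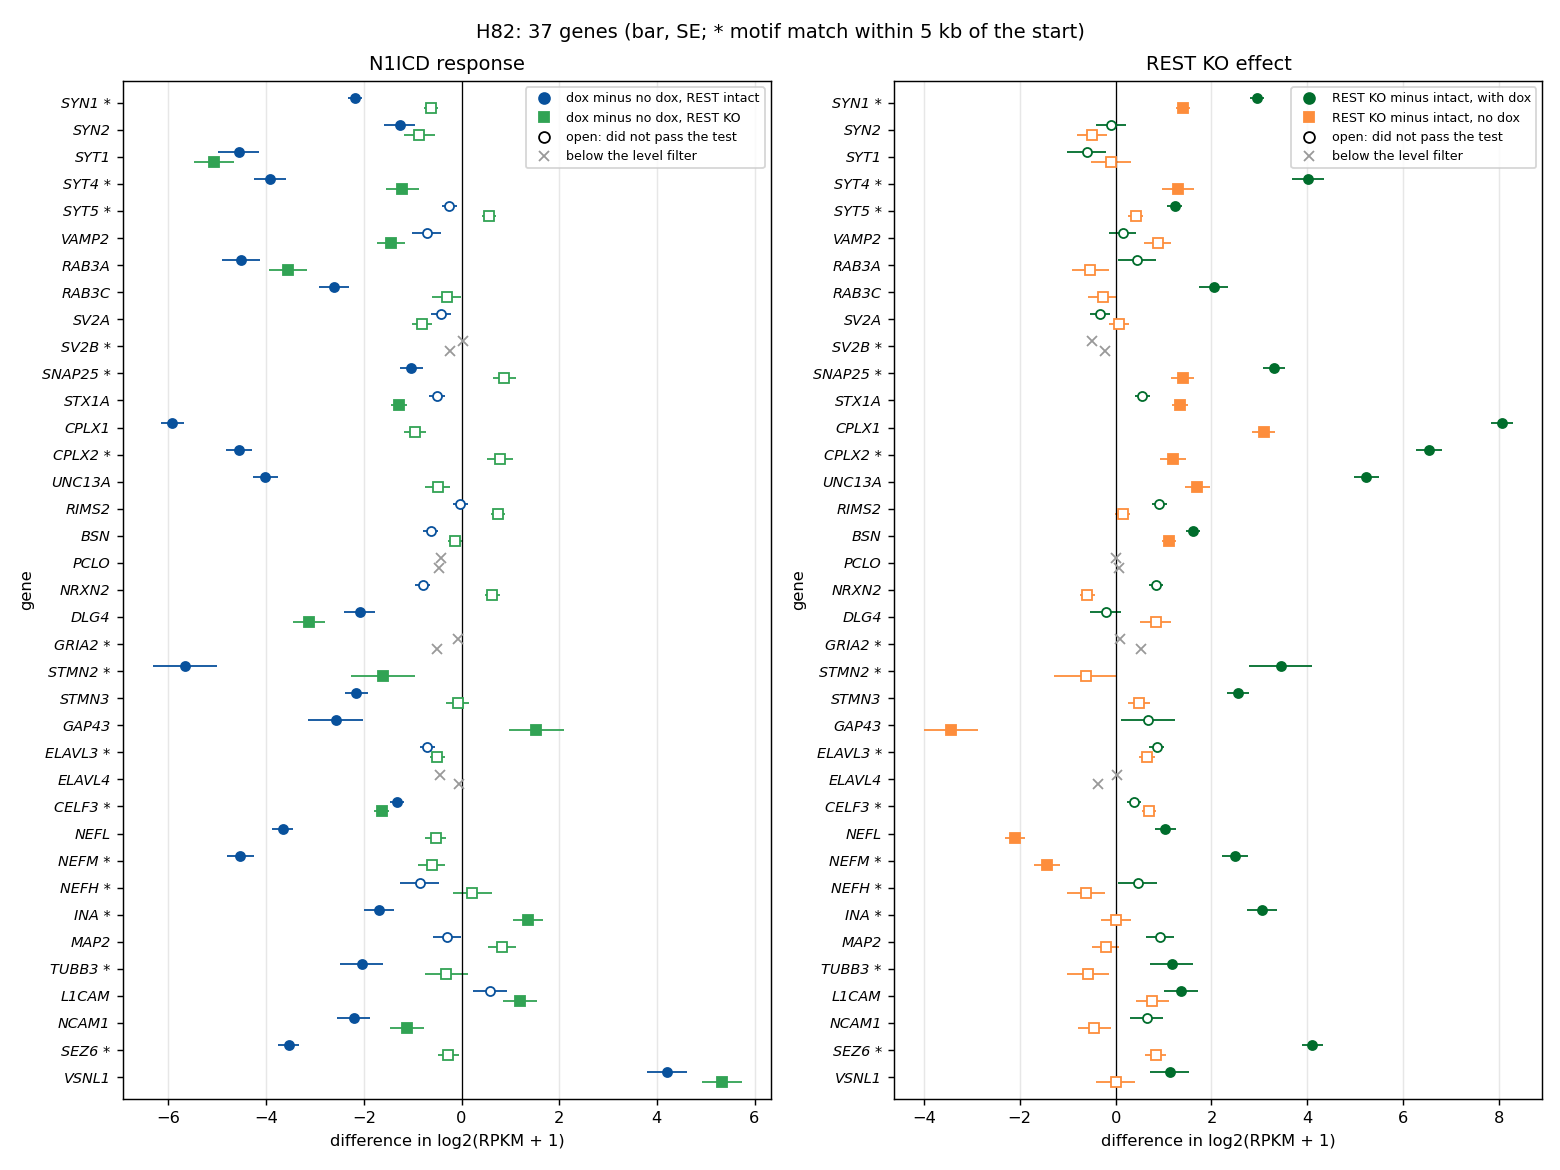
Differences in log2(RPKM + 1) of the 37 genes in H82 cells. Left, dox minus no dox in *REST* intact and *REST* KO cells. Right, *REST* KO minus intact with and without dox. Bars show the SE, filled points passed the limma test, open points did not, crosses were below the level filter, and asterisks mark a motif match within 5000 bases of the start. *CPLX1*, *CPLX2* and *UNC13A* lie furthest to the right with dox, at 8.06, 6.54 and 5.23, and *SYT1* and *RAB3A* lie far left in both pairs of the left panel.

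In H524 cells, *N1ICD* and *REST* were each induced, which allows the response to the *REST* vector to be set beside the response to Notch. *REST* was 5.05, 5.03 and 4.90 in *REST* vector cells without dox and 6.87, 10.72 and 9.43 with it. It was 2.93, 2.66 and 4.20 in *N1ICD* cells without dox and 5.96, 5.85 and 6.12 with it, so the *REST* vector gave the higher *REST* mRNA. *NOTCH1* also rose in the *REST* vector cells, from 0.53, 0.46 and 0.49 without dox to 1.41, 2.29 and 1.91 with it (difference 1.38, SE 0.27, limma adjusted *P* = 0.0144), and its part in the results was not tested. The induced *REST* library with the least *REST*, library 37, had the highest median of the 37 genes among the 3, at 4.66 against 3.79 and 4.19. The uninduced *REST* libraries had medians of 5.27, 4.73 and 4.76.

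Induced *REST* lowered 8 of the 37 genes and raised none (0 of 34 tested), against 0.586% lower and 1.28% higher over all genes. The median difference was −0.82 over the 37 genes and 0.011 over all genes tested. The difference was below 0 for 35 of the 37 genes, and 25 of the 34 tested had an unadjusted *P* under 0.05 by limma. Over all genes these shares were not counted. *GAP43* went from 8.40, 8.06 and 8.10 to 6.49, 5.89 and 5.86, a log2 difference of −2.10 (SE 0.43, limma adjusted *P* = 0.0205). *NEFM* differed by −1.83 (SE 0.39), *CPLX1* by −1.72 (SE 0.34), *SEZ6* by −1.67 (SE 0.41) and *STMN3* by −1.29 (SE 0.18). *CPLX2*, *NEFL* and *PCLO*, the scaffold piccolo, were the other 3.

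Several genes that were higher with the *REST* KO in H82 did not pass here. *UNC13A* was 7.86, 7.37 and 7.33 without and 6.92, 5.54 and 6.22 with *REST* (difference −1.29, SE 0.34, limma adjusted *P* = 0.059). *SYN1* differed by −0.89 (SE 0.26), *SNAP25* by −0.52 (SE 0.34), *STMN2* by −1.72 (SE 0.91) and *TUBB3* by −0.91 (SE 0.25). Of genes tested but not called higher with the KO in H82, *CELF3* (−0.65, SE 0.27) and *NCAM1* (−0.66, SE 0.34) did not pass here either. *ELAVL4*, which was not tested in H82, did not pass here (0.22, SE 0.31). The number of calls depended on single libraries. It was 1 without library 34, 35, 38 or 39, it was 2 without library 36, and it was 12 without library 37. *STMN3* alone kept its call under all 12 alternative settings.

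Induced *N1ICD* lowered 17 of the 37 genes in H524 and raised none (0 of 34 tested, with 25 of them at an unadjusted *P* under 0.05, limma), against 7.19% lower and 11.4% higher over all genes. The median difference was −1.02. *GAP43* fell by 3.47 (SE 0.43), *SYT1* from 7.96, 8.42 and 8.53 to 5.37, 5.05 and 4.99, and *RAB3A* by 2.57 (SE 0.31). *NEFM* (−2.63), *ELAVL4* (−2.02), *TUBB3* (−1.77), *UNC13A* (−1.56) and *NCAM1* (−1.44) also fell. *VSNL1* fell from 8.66, 7.67 and 9.05 to 5.45, 5.79 and 5.77. *SNAP25* (0.86), *SYN1* (−0.47), *STMN3* (−0.72), *STMN2* (−1.22) and *CELF3* (−0.48) did not pass.

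The *N1ICD* and the *REST* pairs share no library. In both fell 5 genes, which are 5 of the 17 and of the 8: *CPLX2*, *GAP43*, *NEFL*, *NEFM* and *SEZ6*. Over all genes tested in H524, 32 of 13648 (0.234%) fell in both, which are 32 of the 981 that fell with *N1ICD* and of the 80 that fell with *REST*. The direct test of the difference called 8 genes, 6 of them more negative with *N1ICD* and 2 more positive, against 5.68% and 9.88% of all genes. The median over the 37 genes was −0.017. The responses of *SYT1* differed by −2.66 (SE 0.36), those of *ELAVL4* by −2.25 (SE 0.43), those of *VSNL1* by −1.90 (SE 0.55) and those of *RAB3A* by −1.81 (SE 0.43). *MAP2* (−1.64), a microtubule protein of dendrites, and *NEFL* (−1.19) were the other 2. The calls of *VSNL1* and *NEFL* were each lost in 8 of 18 alternative settings. *L1CAM* (1.62, SE 0.28) and *RIMS2* (1.15, SE 0.19), an active zone protein, were more positive with *N1ICD*.

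*SYT1* and *RAB3A* had large falls with *N1ICD* in both lines. In H524 with the *REST* vector *SYT1* was 9.78, 9.28 and 9.22 without dox and 9.41, 8.44 and 8.91 with it, and *RAB3A* was 9.19, 8.66 and 8.72 against 8.54, 7.96 and 7.82. Neither *SYT1* nor *RAB3A* passed the test for *REST* (adjusted *P* = 0.324 and 0.221 by limma). In H82 both fell with *N1ICD* in *REST* KO cells as well. *CPLX2*, in contrast, fell with *N1ICD* and with *REST* in H524, and in H82 fell only in the *REST* intact pair, with a difference between pairs that passed the test. Its call with *REST* in H524 was lost in 7 of 12 alternative settings.

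Between the induced groups of H524, 12 genes were lower and 2 higher with *N1ICD* than with *REST* (11.5% and 12.3% of all genes), and the median difference was −0.35. *MAP2* (−3.81), *SYT1* (−3.78), *ELAVL4* (−3.76) and *STMN2* (−3.54) were the lowest, and *SNAP25* (1.66) and *SYN2* (1.07), a second synapsin, the 2 higher. The *SYN2* call was lost in 9 of 12 alternative settings. The uninduced *N1ICD* cells of H524 already had 8 of the 37 genes lower than parental cells and none higher (7.16% lower and 4.94% higher over all genes). *STMN2* was 3.46, 8.38 and 6.18 in these cells against 10.06, 10.52 and 9.14 in parental cells. The uninduced *REST* vector cells had none of the 37 called in either direction (0 of 34 tested, 2 at an unadjusted *P* under 0.05, limma), against 0.242% lower and 0.022% higher over all genes.

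**Figure D4:**
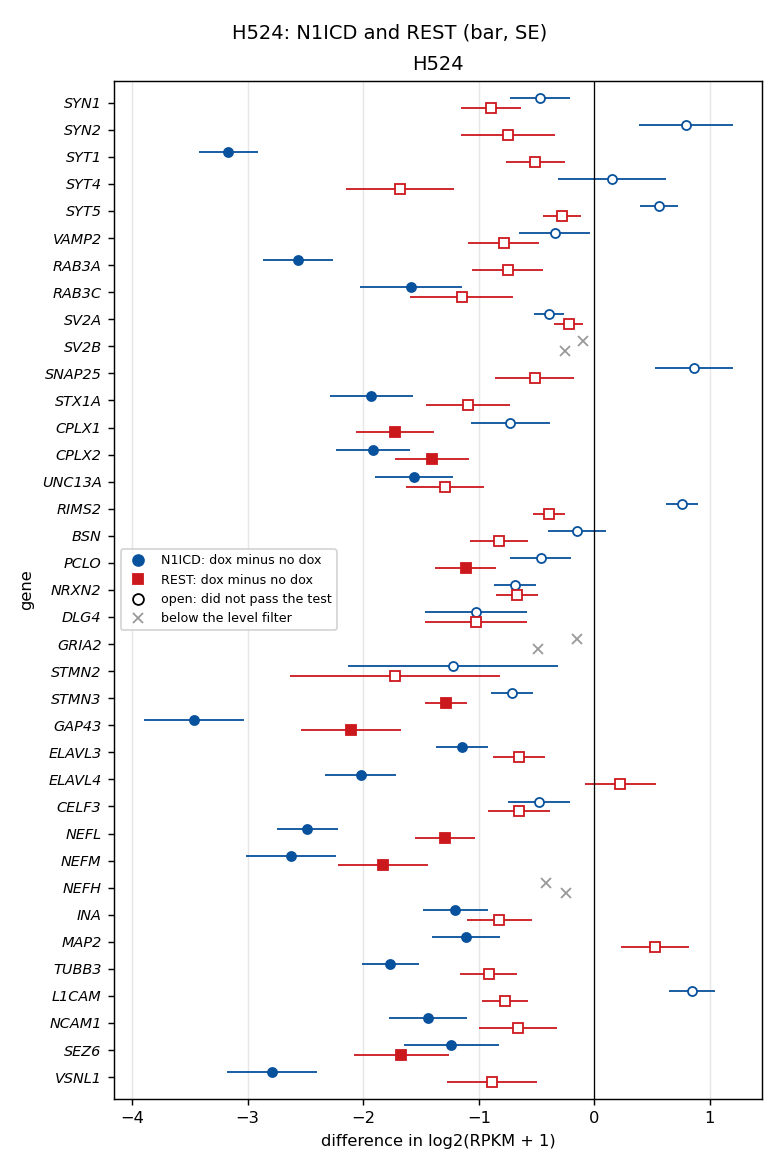
Differences in log2(RPKM + 1), dox minus no dox, of the 37 genes in H524 cells with the *N1ICD* vector (blue circles) and the *REST* vector (red squares). Bars show the SE, filled points passed the limma test, open points did not, and crosses were below the level filter. *SYT1*, *RAB3A* and *ELAVL4* lie at −3.17, −2.57 and −2.02 with *N1ICD* and between −0.75 and 0.22 with *REST*.

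In H69 cells, where all 37 genes were tested, induced *N1ICD* lowered 28 and raised 2, against 20.4% lower and 21.4% higher over all genes. The median difference was −2.89 over the 37 genes and 0.083 over all genes tested. *REST* was 1.34, 0.00 and 0.12 without dox and 5.54, 5.46 and 5.52 with it. *STMN2* went from 9.32, 9.20 and 9.43 to 0.80, 0.19 and 0.19, a log2 difference of −8.92 (SE 0.15), and *CPLX2* from 8.75, 8.94 and 9.10 to 0.00, 0.00 and 0.11. *SYT4*, a synaptotagmin, was 8.10, 7.74 and 7.88 without dox and listed at 0 in all 3 libraries with it, as was *ELAVL4*.

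*SYT1* fell by 6.92 (SE 0.16), *GAP43* by 5.36 (SE 0.19), *UNC13A* by 4.82 (SE 0.16) and *SNAP25* by 4.63 (SE 0.10). *NCAM1* (−3.18), *STMN3* (−2.89), *TUBB3* (−2.77), *SYN1* (−1.50) and *CELF3*, which only just reached the fold threshold, also fell. All 5 fusion, all 3 active zone, all 3 growth and all 3 RNA-binding genes fell. The exceptions were *VSNL1*, listed at 0 without dox and at 5.45, 4.80 and 3.69 with it, and the neurofilament gene *NEFH*, which rose from 1.16, 0.30 and 0.20 to 2.38 in each library. The uninduced vector cells of H69 differed from parental cells in 1 gene lower (*SYN2*, −1.31) and 1 higher (*GAP43*, 2.00), against 2.25% and 3.02% of all genes, although their mean *NEUROD1* was 9.39 against 4.37.

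The H82 cells labelled *STING1* KO had most of these genes low before induction. In them the *STING1* gene, listed as *TMEM173*, was 0.55, 0.52 and 0.11 without dox. It was at most 0.045 in uninduced *N1ICD* cells with intact *STING1* and 0.53, 0.25 and 0.21 in parental H82 cells. Its mRNA thus does not mark the KO, for which the paper shows immunoblots of single-cell clones. The median of the 37 genes in the labelled cells was 0.79 to 1.23 without dox, close to the 1.15 to 1.42 of induced intact cells. Compared with uninduced intact cells, 18 genes were lower and none higher (0 of 33 tested, with 29 at an unadjusted *P* under 0.05, limma). Over all genes tested, 7.72% were lower and 6.64% higher, and the median of all genes was −0.11. This comparison was added after the values had been seen.

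*STMN2* was 0.38, 0.54 and 1.23 in these uninduced cells, a difference of −7.32 (SE 0.66) from intact cells. *SYT4* differed by −5.78 (SE 0.33), *CPLX2* by −4.09 (SE 0.27) and *UNC13A* by −3.71 (SE 0.26). *GAP43* was listed at 0 in all 3 libraries. *REST* was 5.35, 5.26 and 5.17, above the 4.42 to 4.80 of intact cells by 0.62 (SE 0.22), and mean *YAP1* was 5.73 against 4.36, while mean *NEUROD1* was 12.3 against 13.8. Parental H82 cells, in which the genes were high, had *REST* at 4.64, 5.33 and 5.09, which overlaps the values of the labelled cells. *NOTCH1* was 2.15, 1.77 and 1.89 in the labelled cells and 1.45, 0.88 and 1.15 in intact cells. Whether any of these differences has a part in the low levels was not tested. With dox, 7 of the 37 genes fell further and 3 rose (8.07% and 12.2% of all genes), with a median difference of −0.23. *SYT1* differed by −3.80 (SE 0.41), *RAB3A* by −2.18 (SE 0.39), *DLG4* by −1.85 (SE 0.32) and *NEFL* by −1.73 (SE 0.21), while *VSNL1*, *GAP43* and *L1CAM* rose.

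The uninduced *N1ICD* cells of H82 with intact *REST* had 4 genes lower and 1 higher than parental cells (2.66% and 3.75% of all genes), with a median difference of 0.10. *GAP43* was lower by 2.68 (SE 0.57), *MAP2* by 1.38 and *SNAP25* by 1.18, and *VSNL1*, listed at 0 in the vector cells, was the fourth. *NEFL* was higher by 1.00. Without library 4 the number of calls was 11.

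In COR-L88, most of the genes tested were lower after LSD1 inhibition. *REST* was 3.55, 3.57 and 3.52 with DMSO, 6.25, 6.57 and 6.48 with TAS1440 and 6.31, 6.19 and 6.32 with TAS1440 plus GSI. TAS1440 lowered 22 of the 37 genes and raised 1, against 7.46% lower and 15.3% higher over all genes, with a median difference of −1.21. *SYT4* fell from 9.67, 10.08 and 10.35 to 0.39, 0.42 and 0.35, a log2 difference of −9.64 (SE 0.17, limma adjusted *P* = 3.65e-13). *UNC13A* fell from 6.17, 6.07 and 5.94 to 1.28, 1.09 and 0.87, *STMN2* by 3.64 (SE 0.30) and *RAB3C*, a vesicle GTPase, by 3.50 (SE 0.17). *VSNL1* again rose, from 4.84, 2.73 and 2.76 to 8.22, 7.14 and 6.47.

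With GSI added, these genes were low in COR-L88 as well. TAS1440 plus GSI lowered 22 genes and raised 1 against DMSO (3.4% lower and 5.62% higher over all genes), with a median difference of −1.67, and *SYT4* was listed at 0 in all 3 libraries. This comparison shares the DMSO libraries with the one before. The direct comparison of TAS1440 with TAS1440 plus GSI called 4 of the 37 genes. Without GSI, *SYT1* was higher by 2.43 (SE 0.18), *L1CAM* by 1.76 (SE 0.30) and *CPLX1* by 1.43 (SE 0.29), and *NCAM1* was lower by 2.00 (SE 0.18). Over all genes 10.4% were higher and 4.32% lower without GSI, and the median over the 37 genes was 0.075.

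*NCAM1* was the 1 gene of the set that was higher with GSI in COR-L88, at 4.84, 4.93 and 4.96 against 2.46, 3.22 and 3.06 with TAS1440 alone and 5.07, 5.27 and 5.14 with DMSO. By contrast, *UNC13A* with GSI was 0.63, 0.76 and 0.70. *SYP*, which encodes the vesicle protein synaptophysin, was at a mean of 4.95 with DMSO, 0.48 with TAS1440 and 0.62 with TAS1440 plus GSI.

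COR-L88 cells labelled *STING1* KO gave similar values, in libraries not shared with the intact pair. TAS1440 lowered 25 genes and raised 1 (5.79% and 10.2% of all genes), with a median difference of −1.38. All 22 genes that fell in intact cells fell here too, while over all genes 543 of the 980 that fell in intact cells did so (55.4%). *SYT4* differed by −9.63 (SE 0.17) and *UNC13A* by −5.03 (SE 0.18), and *REST* was 3.37, 4.20 and 2.89 with DMSO and 6.11, 6.25 and 6.25 with TAS1440. *TMEM173* with DMSO was 0.096 to 0.36 in these cells and 0.20 to 0.41 in intact cells.

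In KP1 mouse cells, 20 of the 22 tested genes fell with TAS1440 and none rose (0 of 22, all 22 at an unadjusted *P* under 0.05, limma), against 9.7% lower and 9.09% higher over all genes. A mean of at least 1 was reached by 20 of the 37 genes with DMSO, 21 with TAS1440 plus GSI and 8 with TAS1440. Many of the 22 thus passed the filter through the groups where they were high, which favors falls with TAS1440 in this count. The median over the 37 genes was −1.14. *Rest* was 0.033, 0.025 and 0.033 with DMSO, 2.48, 1.99 and 1.65 with TAS1440 and 0.99, 0.72 and 1.02 with TAS1440 plus GSI. *Celf3* was 4.93, 4.86 and 4.90 with DMSO and 0.00, 0.12 and 0.56 with TAS1440, a log2 difference of −4.67 (SE 0.20). *Cplx2* fell by 4.53 (SE 0.47), *Nefl* by 4.07 (SE 0.37) and *Ina* by 3.37 (SE 0.31).

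With GSI added, most of the genes in KP1 were near their DMSO level. *Celf3* with TAS1440 plus GSI was 3.15, 3.67 and 3.24, and was the only gene of the set called against DMSO (1 lower, none higher, 8 of 22 at an unadjusted *P* under 0.05, limma). Over all genes 0.751% were lower and 0.46% higher in that comparison, and the median over the 37 genes was 0.012. Compared with TAS1440 plus GSI, TAS1440 alone had 17 genes lower and none higher (0 of 22 tested, all 22 at an unadjusted *P* under 0.05, limma), against 8% and 8.5% of all genes, with a median of −0.97. *Cplx2* was 6.17, 5.99 and 5.60 with GSI and 1.41, 1.35 and 3.33 without it. *Nefl* (5.63, 5.35 and 4.62 with GSI; 0.00, 0.13 and 0.89 without) and *Stmn3* (3.71, 4.08 and 4.65; 0.06, 0.71 and 1.54) showed the same order.

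The 2 lines differed in *REST* under GSI. In COR-L88 *REST* with TAS1440 plus GSI did not differ by the test from TAS1440 alone (0.16 lower with GSI, SE 0.23, limma adjusted *P* = 0.605), while in KP1 *Rest* was lower with GSI by 1.13 (SE 0.19, limma adjusted *P* = 0.00169). The lines also differ in species and in the GSI used, so species, line and inhibitor cannot be told apart here, and the tables of the 2 lines were normalized separately.

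**Figure D5:**
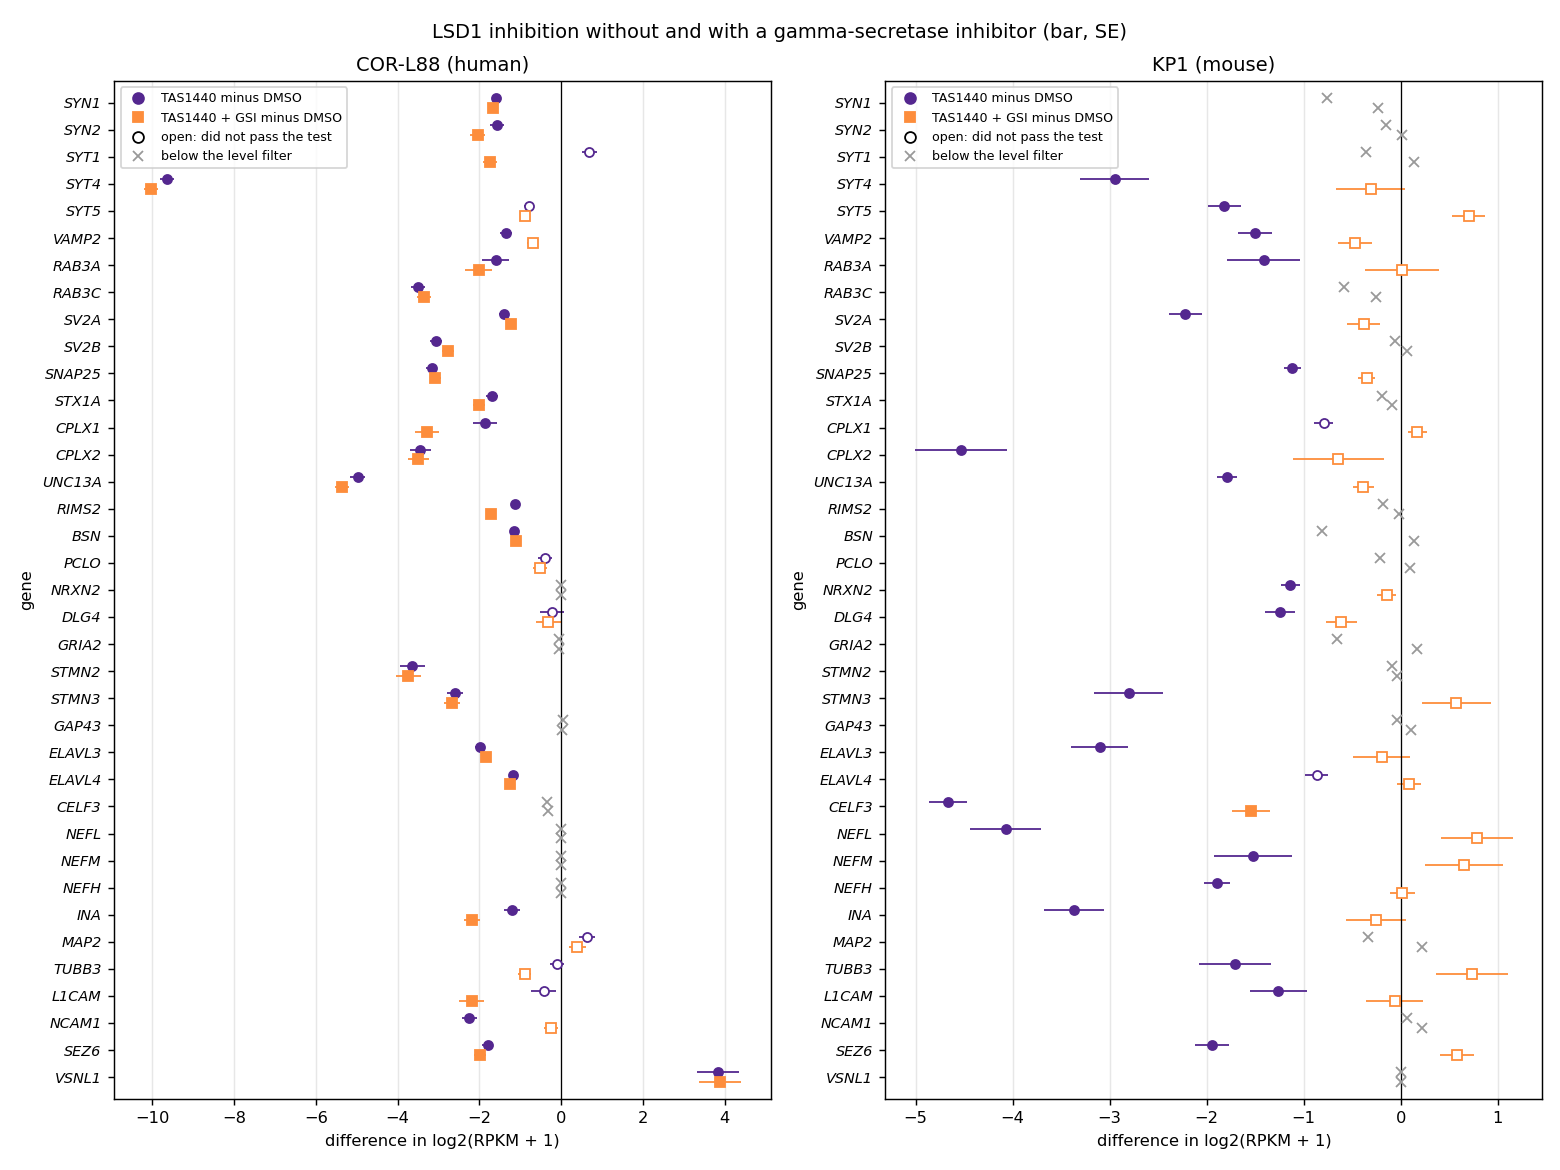
Differences in log2(RPKM + 1) from DMSO of the 37 genes with TAS1440 (purple circles) and TAS1440 plus GSI (orange squares) in COR-L88 and KP1 cells (mouse symbols in capitals; the horizontal scales differ). Bars show the SE, filled points passed the limma test, open points did not, and crosses were below the level filter. Both marks lie left of 0 for most genes in COR-L88, with *SYT4* at −9.64 with TAS1440, while in KP1 the orange squares lie near 0 apart from *Celf3* at −1.54.

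Across the 5 lines, whose comparisons of *N1ICD* with no dox (H82, H524, H69) and of TAS1440 with DMSO (COR-L88, KP1) share no library, each of the 37 genes fell in at least 1 line. In all 5 lines fell 5 genes: *CPLX2*, *UNC13A*, *RAB3A*, *SEZ6* and *INA*. These are 5 of the 16 members tested in every line, and over all genes tested in every line 28 of 6617 (0.423%) fell in all, with mouse genes matched to human genes by symbol. Another 7 fell in 4 lines (*ELAVL3*, *NCAM1*, *RAB3C*, *SNAP25*, *STMN3*, *SYT4* and *TUBB3*), 11 in 3 lines, 8 in 2 lines and 6 in 1 line. Over all genes tested in at least 1 line, 29.7% fell in 1 or more lines, 2.91% in 3 or more and 0.816% in 4 or more. The counts depend on where a gene was tested: *GAP43* was tested in 3 lines and fell in 3, and *SV2B* was tested in 2 and fell in 2. Among the genes that fell in 1 line were *GRIA2*, an AMPA receptor subunit with the exact motif match, which was tested only in H69, and *PCLO*. The 2 genes that rose in any line were *VSNL1*, in H82, H69 and COR-L88, and *NEFH*, in H69.

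Genes outside the set were counted for comparison. Over all genes tested, 12.4%, 7.19% and 20.4% fell with *N1ICD* in H82, H524 and H69, and 14.7%, 11.4% and 21.4% rose. With *REST* KO in induced H82 cells 9.44% were higher and 8.21% lower. TAS1440 lowered 7.46% and raised 15.3% in COR-L88, and lowered 9.7% and raised 9.09% in KP1. Induced *REST* in H524 lowered 0.586% and raised 1.28%. Of 20 further genes known as REST targets (such as *CHGA*, *CHRNB2* and *VGF*), 14 had a motif match by the same search. They were chosen as known targets, so this count is not an independent result. Of the 20, 17 were tested in H82, 17 in H524, 16 in H69, 14 in COR-L88 and 10 in KP1. In induced H82 cells 11 of the 17 tested were higher with *REST* KO and 1 lower. *CHRNB2*, a nicotinic receptor subunit, was higher by 6.27 (SE 0.29) and *VGF*, a secreted neuropeptide precursor, by 5.02 (SE 0.32). *CHGA*, the secretory granule protein chromogranin A, was higher by 4.76 (SE 0.34). *N1ICD* lowered 8 of the 20 in H82, 7 in H524 and 13 in H69 and raised 1 in each, TAS1440 lowered 11 in COR-L88, and induced *REST* in H524 lowered 1 (*GRIN1*, an NMDA receptor subunit, −2.27). In KP1, TAS1440 lowered 9 of the 17 found in the table.

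Of 28 further presynaptic genes, 3 had a motif match. Of the 28, 24 were tested in H82, 26 in H524, 23 in H69, 20 in COR-L88 and 10 in KP1. With *REST* KO in induced H82 cells 4 of the 24 tested were higher and 2 lower, the largest difference being that of *SYP* (4.17, SE 0.23). Induced *N1ICD* lowered 8 of these 28 in H82, 11 in H524 and 16 in H69 (1, 2 and 0 rose), induced *REST* lowered 1, and TAS1440 lowered 10 in COR-L88 and 6 of 27 in KP1.

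A list of 11 relatives expressed outside neurons (such as *SNAP23*, *VAMP3* and *UNC13D*, counterparts of *SNAP25*, *VAMP2* and *UNC13A*) had no motif match (0 of 11). In a list of this size, that cannot be told apart from the 2.57% of all protein-coding genes. *N1ICD* raised 3 of the 11 and lowered 3 in H82, and the figures were 3 and 2 in H524 and 4 and 1 in H69. TAS1440 raised 3 and lowered 1 in COR-L88 and raised 1 and lowered 1 of the 9 found in KP1, and induced *REST* in H524 changed none (0 of 11, 7 at an unadjusted *P* under 0.05, limma). With *REST* KO in induced H82 cells 5 were lower and none higher (0 of 11, 6 at an unadjusted *P* under 0.05, limma). *UNC13D* was 6.56, 5.96 and 6.65 in induced intact cells and 4.71, 4.55 and 2.97 in induced KO cells (difference −2.31, SE 0.41), *SNAP23* differed by −1.42 (SE 0.23) and *VAMP3* by −1.10 (SE 0.15). *UNC13A* and *UNC13D* thus moved in opposite directions between these 2 groups, as did *SNAP25* and *SNAP23*. *VAMP2*, the counterpart of *VAMP3*, did not pass, at a mean of 6.45 in induced intact and 6.60 in induced KO cells.

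A list of 12 markers of neuroendocrine and non-neuroendocrine SCLC, which holds *REST* and *NCAM1*, was counted in the same way. *N1ICD* lowered 6 and raised 5 of them in H82, lowered 6 and raised 6 in H524, and lowered 6 and raised 4 in H69. TAS1440 lowered 6 and raised 3 in COR-L88 and lowered 5 and raised 5 in KP1, while induced *REST* in H524 lowered 1 and raised 1. *YAP1*, a marker of non-neuroendocrine cells, was at a mean of 4.36 in uninduced and 6.93 in induced H82 cells with intact *REST*, and the receptor gene *AXL* at 2.16 and 7.87. With *REST* KO in induced H82 cells 3 of the markers were higher and 1 lower than in intact cells. Without dox, 4 markers were lower with *REST* KO and none was higher (0 of 11 tested, 7 at an unadjusted *P* under 0.05, limma). Of the 37 genes, 3 were lower and 8 higher in that comparison, and over all genes 2.85% were lower and 3.39% higher. *NOTCH1*, the target of the *N1ICD* vector, was 7.58 to 8.31 in induced H524 cells and 7.93 to 8.07 in induced H69 cells, and in COR-L88 it was 0.61 to 0.74 with DMSO, 1.99 to 2.79 with TAS1440 and 6.71 to 6.75 with TAS1440 plus GSI. The part of a shift in cell state in the levels of the 37 genes was not tested.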

How the data were processed

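The authors trimmed reads of stranded polyA libraries with Cutadapt, aligned them with STAR (hg19 for human cells; the submitters' notes also name mm10), quantified genes with RSEM, scaled libraries by TMM in edgeR and deposited log2 values of RPKM + 1, with the human and KP1 tables normalized separately. Tool versions are not given in the sources used here. Counts are not in the tables, so read depth is unknown. From the steps between low values, relative library size was 0.76 to 1.40 (H82), 0.719 to 1.15 (COR-L88), 0.817 to 1.50 (H524), 0.61 to 0.865 (H69) and 0.806 to 1.30 (KP1).

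limma 3.58.1 (R 4.3.3) was fitted per line with 1 mean per group and a variance trend, tested on simulated data, with two-sided tests. The Benjamini-Hochberg adjustment covered every gene that passed the filter. Genes named were 10 set by name (*SYN1*, *SNAP25*, *STMN2*, *STMN3*, *ELAVL4*, *CELF3*, *TUBB3*, *NCAM1*, *UNC13A*, *GAP43*), up to 4 called genes per direction and comparison with the largest differences and groups that do not overlap, *REST* and *NOTCH1*. For other lists up to 3 of the largest were named. Further genes were named after their values were seen. The members and lists were chosen with earlier results of these data known. Of 69 replicate pairs, none was identical (0), with Pearson's r across genes of 0.936 to 0.997. Gene models were GENCODE on GRCh37. The fits were repeated without the filter, with a pseudocount of 0.1, after quantile normalization, after centring each library on its median, on the compared groups alone, without the variance trend and leaving out each library. The levels of 1 marker gene are not reported here.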

Additional observations from a re-analysis of the deposited data

Results flagged for a closer look

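The response of the genes to dox differed between *REST* KO and intact H82 cells by a test of the interaction in limma for 15 of the 37 genes, led by *CPLX2* (5.34), *CPLX1* (4.97), *GAP43* (4.11) and *STMN2* (4.07, KO response minus intact response on the log2 scale). For *GAP43*, KO minus intact was −3.43 without dox and 0.68 with it, so most of its value came from the uninduced cells. In H524 the responses to *N1ICD* and to *REST* differed for 8 of the 37 genes. They were more negative with *N1ICD* for *SYT1* (−2.66), *ELAVL4* (−2.25), *VSNL1* (−1.90) and *RAB3A* (−1.81), and more positive for *L1CAM* (1.62) and *RIMS2* (1.15). Groups of 3 libraries were too small for a test of single outlying libraries.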

How the results depend on the processing

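Over 23 comparisons and 288 refits, the number of the 37 genes called stayed within 1.5 times the reported number in 273 and moved further in 15, in 5 comparisons. No call changed direction, and 258 of 313 single-gene calls held under every alternative. For H82 *N1ICD* cells without dox against parental cells (5 calls) the count was 8 with a pseudocount of 0.1, 2 with only the compared groups and 4 to 11 leaving out 1 library. For TAS1440 against TAS1440 plus GSI in COR-L88 (4 calls) it was 9 with a pseudocount of 0.1, and for TAS1440 plus GSI against DMSO in KP1 (1 call) it was 0. For induced *REST* in H524 (8 calls) it was 5 without the filter, 5 with only the compared groups and 1 to 12 leaving out 1 library. For uninduced *N1ICD* cells against parental cells in H524 (8 calls) it was 2 with only the compared groups and 5 to 10 leaving out 1 library, with 5 without library 19 or library 22. The cause of these moves was not tested. With 3 libraries per group and no counts, small differences of low genes cannot be resolved. No paired analysis was possible because each library number of the labels occurs in a single group of its table.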
